A study of Mus musculus with 6 samples.

Results

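The genes of insulin receptor signalling are described here in the renal cortex of male mice, as measured on one-colour Agilent micro-arrays. The 9 genes were chosen by name for their place in the pathway, with earlier results of these data known. They are Insr, Irs1, Irs2, Pik3r1, Akt1, Akt2, Foxo1, Foxo3 and Grb10, out of 27453 genes with a symbol on the array. Together they had 19 probes, and all 9 had at least 1 probe bright enough to test. The series holds 6 arrays, 3 per group under the labels db/m and db/db, each from the renal cortex of a male mouse aged 16 weeks. Db/db mice lack a working leptin receptor and become obese, hyperglycaemic and resistant to insulin, while db/m mice carry a single copy of the mutation and do not become diabetic. A treatment of 8 weeks with Huangqi decoction (HQD), a herbal formula, is stated with the labels of all 6 samples, and the methods of the study describe the arrays as HQD-treated db/db mice against non-treated db/db mice on the C57BLKS/J background, without a dose. Labels and methods therefore do not give the same first group, and genotype and treatment cannot be told apart for it. The groups are called labelled db/m and labelled db/db, and a positive difference means a higher level in labelled db/m. According to the methods the animals were fasted overnight before the tissue was taken.

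Insulin binds a receptor tyrosine kinase encoded by Insr, which phosphorylates the docking proteins Irs1 and Irs2. These recruit phosphoinositide 3-kinase through its regulatory subunit, encoded by Pik3r1, and the lipid it makes brings the kinases Akt1 and Akt2 to the membrane. Akt phosphorylates the transcription factors Foxo1 and Foxo3 and so keeps them out of the nucleus, where they would otherwise switch on genes such as G6pc and Igfbp1. Grb10 is an adaptor that binds the active receptor and restrains it. In the kidney the cells of the proximal tubule make glucose in fasting and podocytes respond to insulin. The arrays measured mRNA, and phosphorylation, through which most of this pathway runs, was not measured.

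A level is given as the log2 intensity of a probe minus the 75th percentile of the log2 intensities of its array, so that 0 is the 75th percentile and a negative level is not an absence. Levels of different probes are not compared, because each probe binds with its own strength. Probes were tested with limma, a linear model with variances shared across probes, where one group or the other had them well above background on each of its 3 arrays. This left 29889 probes, of which 18 belonged to the 9 genes. Between 53.7% and 60.9% of spots were well above background per array, and none of the probes was saturated. The arrays correlated with each other at r from 0.9807 to 0.9931 across the tested probes. Labelled db/m replicate 2 resembled labelled db/db replicate 3 (r = 0.9917) more than either array of its own group, so results are also given without these 2 arrays. The arrays lay on 3 slides, of which 1 held an array of each group, namely db/m replicate 1 beside db/db replicate 3, so that outside this slide group and slide cannot be told apart. Markers of the proximal tubule and of podocytes were well above background on the arrays (6 of 6 tested in each list). The probes of Lepr, the gene mutated in db/db mice, checked the labels only weakly, since the mutation alters splicing, and its brightest probe overlapped between groups (difference 0.42, SE 0.29, limma adjusted p = 0.447). Nothing in the labels says more of the samples than that they are separate, with source names numbered within each group. Each p-value therefore measures the spread between these arrays.

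Differences of the 9 genes were small. None of the 18 tested probes reached 2-fold, and the largest difference in size was 0.50 on the log2 scale. No probe passed an adjusted p of 0.05 in limma with Benjamini-Hochberg adjustment over all tested probes (lowest adjusted p = 0.24), and percent called was 0 for the array as a whole by that rule too, and likewise with the methods' t-test. For the array this 0 depended on single arrays, since 222 probes passed once replicate 2 of labelled db/m was dropped, 129 once replicate 3 of labelled db/db was and 263 with both gone, and none of them was a member probe. At an unadjusted p under 0.05, 3 of the 18 probes were called (16.7%), 2 lower and 1 higher, beside 17.7% of all tested probes. The share of the members was thus near that of the array. Without the 2 arrays that resembled each other across groups, 6 of 18 were called at this threshold, beside 30.6% of all probes then tested, an alternative chosen after the data were seen. By the screen of the study, a 2-fold difference with an unadjusted p under 0.05, 0 of 18 were called, beside 0.96% of all tested probes. Levels did not overlap between groups for 6 of the 18 probes (33.3%), beside 24.1% of all tested probes, and 4 of the 6 were lower and 2 higher in labelled db/m. Since no probe passed the adjusted threshold, the values that follow are given as measured and no gene of the 9 is said to have risen or fallen.

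Of the 18 probes, 15 (83.3%) had a difference below 0, compared with 53.5% of all tested probes. Their median was -0.16, compared with -0.03 for all tested probes. Probes of 1 gene share their target and are not independent, so these are counts of 18 probes from 9 genes. Centring each array on its median moved the differences of all probes by -0.19, to a median of -0.21, and that of the members to -0.35 with 16 of 18 below 0. After quantile normalization 12 of 18 were below 0, with a median of -0.17. With the slide as a block, which compares only the 2 arrays of the shared slide, 11 of 18 were below 0 and the median was -0.03, beside -0.04 for all probes. Without each array in turn, the median of the members ran from -0.22 to -0.09.

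**Figure D1:**
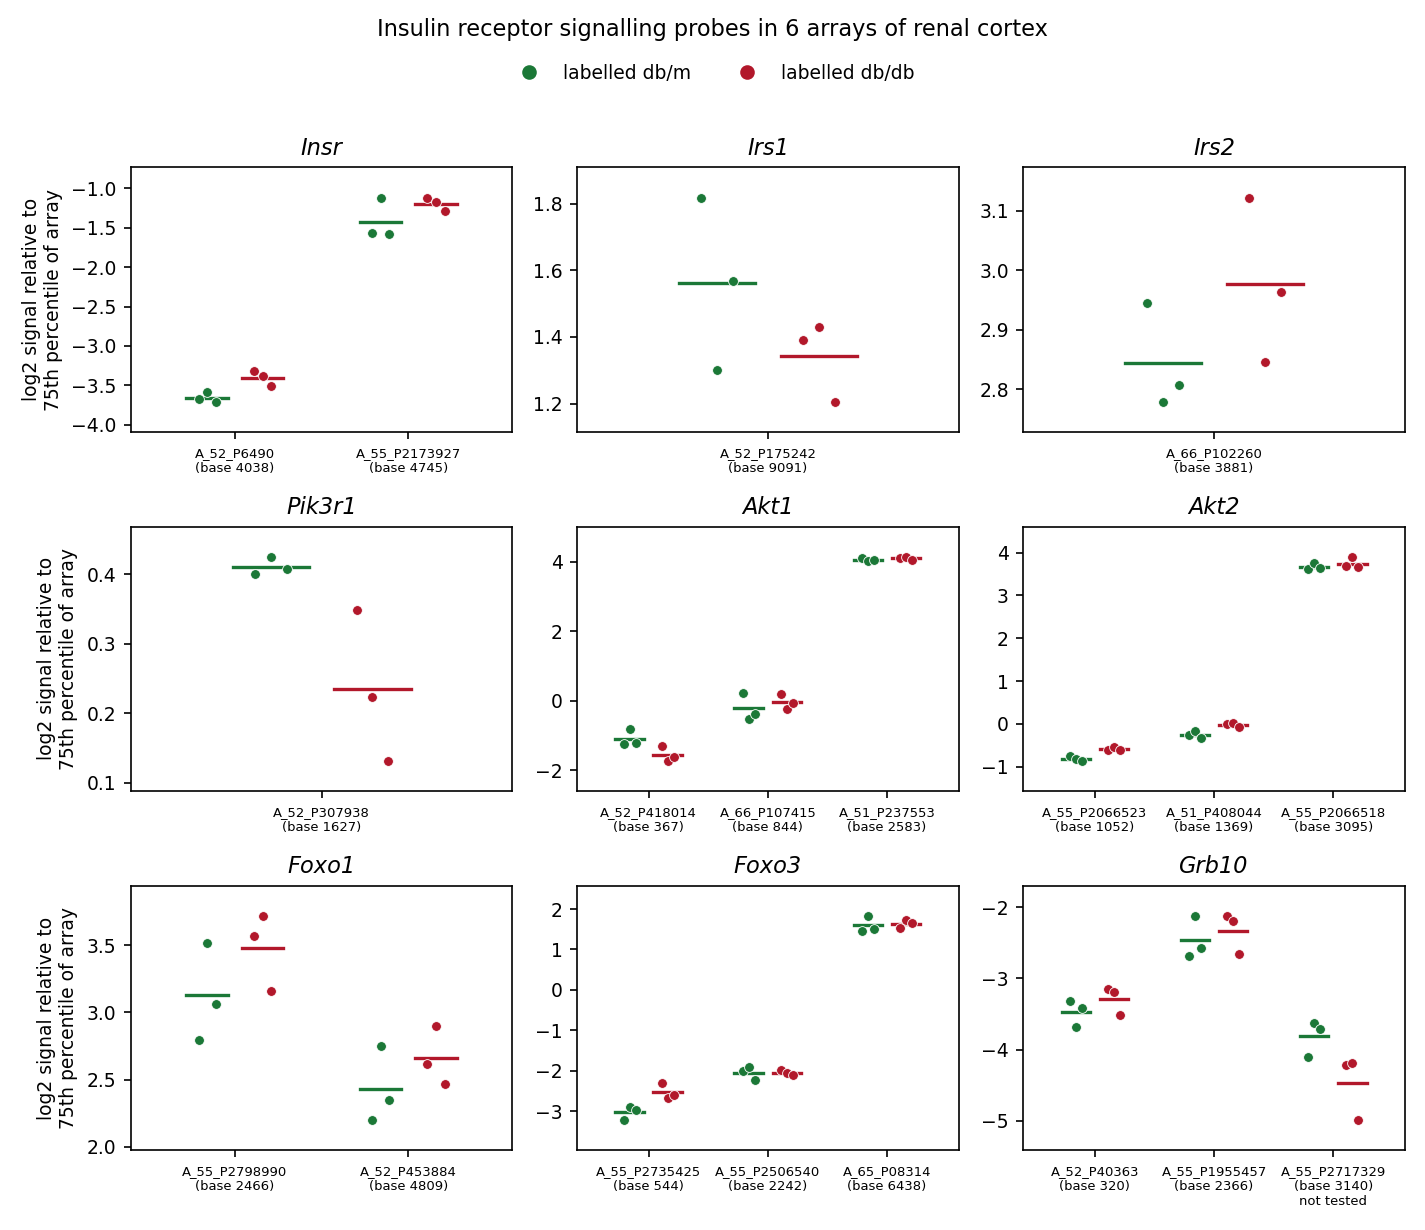
Log2 signal of each of the 19 probes relative to the 75th percentile of its array (vertical axis, its own range in each panel) in the 3 arrays labelled db/m (green) and the 3 labelled db/db (red), with the group mean as a bar and replicates 1 to 3 from left to right. The base is the position in the annotated transcript at which a probe starts. The groups stand apart for the probe of Akt1 at base 367 and that of Foxo3 at base 544, and lie close together for the other probes of both genes.

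Insr, the receptor itself, was read by 2 probes. A_52_P6490 starts at base 4038 of NM_010568 and lies on the minus strand of chromosome 8 (mm9, 3159473 to 3159532). Its levels were -3.68, -3.59 and -3.70 in the arrays labelled db/m and -3.32, -3.38 and -3.51 in those labelled db/db. All 3 arrays labelled db/m lay below all 3 labelled db/db. The difference was -0.25 on the log2 scale, or 16.2% lower (SE 0.11, limma adjusted p = 0.281), and it lost its unadjusted p under 0.05 without any single array other than labelled db/db replicate 3. Within the slide that held 1 array of each group it was -0.17. It was -0.44 under median centring, after quantile normalization and in the authors' matrix.

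The second Insr probe, A_55_P2173927, starts at base 4745 and gave -1.57, -1.13 and -1.58 against -1.12, -1.18 and -1.30. Labelled db/m replicate 2 lay among the db/db arrays, while replicates 1 and 3 lay below them. The difference was -0.23 (SE 0.15, limma adjusted p = 0.432). Without labelled db/m replicate 2 it was -0.37, at an unadjusted p under 0.05. The ratio of both Insr probes within each array did not separate the groups, with a difference of -0.03 between the group means.

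As the pattern most like that of this brighter Insr probe over the 6 arrays, 5 genes are named out of 16458. They were Sgta (Pearson r = 0.9978), Ncln (0.9956), Sec11c (0.9922), Wdr46 (0.9918) and Mpst (0.9918). With 6 arrays high values are common, and 90 genes had an r over 0.95. In all 5, labelled db/m replicate 2 lay above replicates 1 and 3 and above the lowest array labelled db/db, as in Insr, and their differences ran from -0.31 for Mpst to -0.13 for Sec11c.

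Irs1 and Irs2, the docking proteins, differed from each other in sign without passing the test in either case. Irs1 (A_52_P175242, chromosome 1, 82229692 to 82229751, minus strand) had levels of 1.82, 1.30 and 1.57 in labelled db/m and 1.39, 1.43 and 1.21 in labelled db/db. Labelled db/m replicates 1 and 3 were above every array labelled db/db and replicate 2 was not. The difference was 0.22 (SE 0.16, limma adjusted p = 0.459). It was larger within the shared slide, at 0.61, where labelled db/m replicate 1 stood against labelled db/db replicate 3. Irs2 (A_66_P102260, chromosome 8, 11004490 to 11004549, minus strand) had levels of 2.94, 2.78 and 2.81 against 3.12, 2.85 and 2.96. These overlapped, with labelled db/m replicate 1 above labelled db/db replicate 2. The difference was -0.13 (SE 0.12, limma adjusted p = 0.544), with a 95% interval from -0.42 to 0.15.

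Pik3r1, which encodes the main regulatory subunit of the lipid kinase, was read by a probe that spans 1043 bases of genome and so crosses an intron (A_52_P307938, chromosome 13, 102459406 to 102460448, minus strand). Its levels were 0.40, 0.43 and 0.41 in labelled db/m and 0.35, 0.22 and 0.13 in labelled db/db. The groups did not overlap, and the arrays labelled db/m lay close together (SD 0.01, compared with 0.11 in labelled db/db). The difference was 0.18 (SE 0.11, limma adjusted p = 0.388), and it was -0.01 under median centring, so that its direction depends on the scaling.

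Akt1 had 3 probes that did not behave alike. The one nearest the start of the gene, A_52_P418014, starts at base 367 of NM_009652 and spans 9267 bases of genome on chromosome 12 (113900509 to 113909775, minus strand), so that it crosses at least 1 intron. The others, A_66_P107415 (113894094 to 113894153) and A_51_P237553 (113892079 to 113892138), lie further along the gene. Of these, A_66_P107415 is annotated to another transcript than the first probe and A_51_P237553 to the same one. The first 30 of the 60 bases of each probe, in the order of the gene, are shown because the probes of this gene disagree, with CpG pairs in capitals.
Akt1 A_52_P418014: accatgaaCGaCGtagccattgtgaaggag
Akt1 A_66_P107415: tctcaacactctaccttgatgtgttgggtg
Akt1 A_51_P237553: gccattgctgcaccatgtCGttttttacaa

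The first Akt1 probe had levels of -1.25, -0.82 and -1.21 in labelled db/m and -1.32, -1.73 and -1.62 in labelled db/db. Every array labelled db/m was above every array labelled db/db, by the least for replicate 1 of each group. The difference was 0.46, or 38.0% higher (SE 0.17, limma adjusted p = 0.257). It kept its sign under each alternative tried, but its unadjusted p was over 0.05 under several of them. Among these were median centring, with a difference of 0.28, and the fit without labelled db/m replicate 2, with a difference of 0.33. Others were the fits without labelled db/db replicate 2 or replicate 3, with differences of 0.38 and 0.43.

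The second probe of Akt1 gave 0.22, -0.53 and -0.38 against 0.19, -0.25 and -0.07, with the groups mixed (difference -0.19, SE 0.22, limma adjusted p = 0.649). The third gave 4.09, 4.02 and 4.03 against 4.11, 4.13 and 4.06, with an SD of 0.04 in each group. Its difference was -0.05 with a 95% interval from -0.28 to 0.18. The mean of the 3 probes had a difference of 0.08, of the opposite sign to the brightest probe alone.

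Akt2, the form of Akt most tied to glucose handling, had 3 probes on the plus strand of chromosome 7. A_55_P2066523 (28418226 to 28418285) had levels of -0.75, -0.81 and -0.86 against -0.61, -0.53 and -0.62, and A_51_P408044 (28421973 to 28422113, across an intron) had -0.25, -0.18 and -0.32 against 0.005, 0.02 and -0.08. In both, every array labelled db/m was below every array labelled db/db. The differences were -0.22 (SE 0.10, limma adjusted p = 0.294) and -0.23 (SE 0.10, limma adjusted p = 0.292). The brightest probe, A_55_P2066518 (28424405 to 28424464), gave 3.62, 3.75 and 3.65 against 3.68, 3.90 and 3.66. Its groups overlapped, with a difference of -0.07 (95% interval from -0.34 to 0.20) that was 0.05 after quantile normalization.

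**Figure D2:**
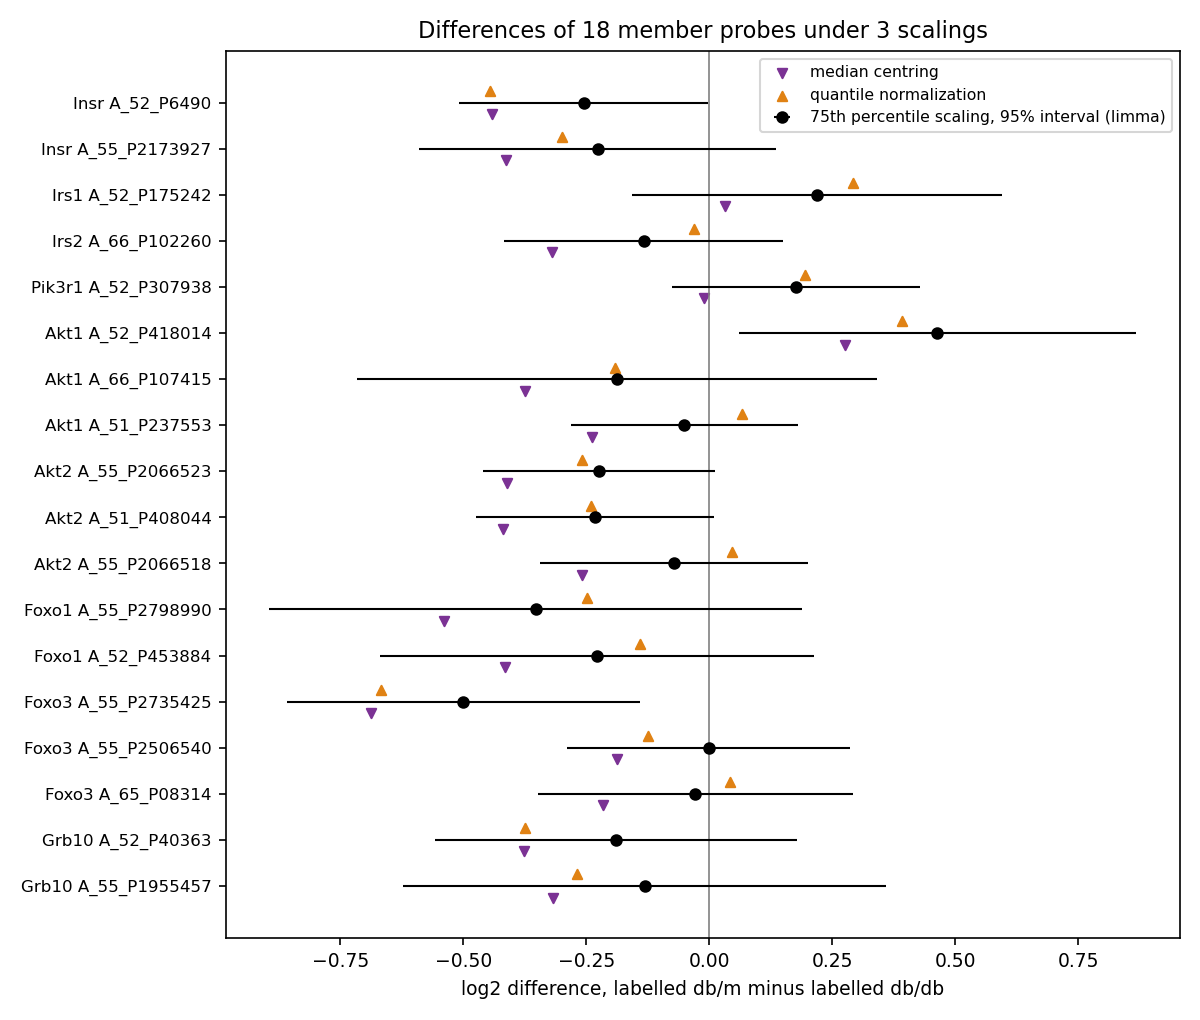
Difference of each of the 18 tested probes on the log2 scale (horizontal axis), higher in labelled db/m to the right, with the limma 95% interval under 75th percentile scaling (black), and the same difference under median centring (purple) and quantile normalization (orange). The intervals of Foxo3 A_55_P2735425, Akt1 A_52_P418014 and Insr A_52_P6490 leave out 0, and median centring moves every probe to the left by the same amount.

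Foxo1, the FoxO factor best known for driving glucose production, had 2 probes on the plus strand of chromosome 3. A_55_P2798990 (52150946 to 52151005) had levels of 2.80, 3.52 and 3.07 in labelled db/m and 3.57, 3.72 and 3.16 in labelled db/db. A_52_P453884 (52153289 to 52153348) had 2.20, 2.75 and 2.34 against 2.61, 2.89 and 2.47. In both, labelled db/m replicate 2 was the highest of its group and labelled db/db replicate 3 the lowest of its group, so that the groups crossed. The differences were -0.35 (SE 0.23, limma adjusted p = 0.414) and -0.23 (SE 0.18, limma adjusted p = 0.505). Without those 2 arrays, which are also the arrays that most resemble each other across groups, they were -0.71 and -0.48. Both were then at an unadjusted p under 0.05, as were 30.6% of all probes then tested. This alternative was chosen after the data were seen and leaves 2 arrays in each group. Leaving out the arrays most alike across groups in itself favours larger differences.

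Foxo3 gave the largest difference among the 9 genes, in 1 of its 3 probes. A_55_P2735425 starts at base 544 of NM_019740 (chromosome 10, 41994961 to 41995020, minus strand), A_55_P2506540 at base 2242 (41916349 to 41916408), and A_65_P08314 is annotated to another transcript and lies furthest along the gene (41901997 to 41902056). The first of them had a GC content of 70.0% and 6 CpG pairs in its 60 bases, compared with 45.0% and 1 for the second and 35.0% and 0 for the third. The first 30 bases of each are shown in the order of the gene for this contrast in base content, with CpG pairs in capitals.
Foxo3 A_55_P2735425: agctCGgccatggtgatCGgtggCGgCGtg
Foxo3 A_55_P2506540: aactttgactccctcatctccacacagaac
Foxo3 A_65_P08314: aagaaaaaagttgcatgaatgaaaacaacc

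Levels of the first Foxo3 probe were -3.21, -2.88 and -2.97 in labelled db/m and -2.29, -2.68 and -2.59 in labelled db/db. All arrays labelled db/m were below all arrays labelled db/db. The difference was -0.50, or 29.3% lower (SE 0.15, limma adjusted p = 0.24). Its sign and an unadjusted p under 0.05 held without each array in turn (from -0.58 to -0.39) and under every other alternative tried except the slide as a block (-0.62). The probe was among the dimmest 7473 of those tested. The second probe gave -2.01, -1.91 and -2.22 against -1.98, -2.04 and -2.11, with a difference of -0.001 (95% interval from -0.29 to 0.29). The third gave 1.47, 1.82 and 1.51 against 1.52, 1.72 and 1.65, with a difference of -0.03 (95% interval from -0.35 to 0.29). Both intervals leave out the -0.50 of the first probe but overlap its own 95% interval, from -0.86 to -0.14.

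For the 12 pairs of tested probes within a gene, the difference between the probes in each array was compared between groups, a comparison chosen after the values were seen. With 3 arrays in each group, the smallest p of an exact two-sided permutation test is 0.1. It was reached by 4 pairs, all of which hold the first probe of Akt1 or of Foxo3 (adjusted exact p = 0.3 over the 12 pairs). Pairs that share a probe are not independent. How often pairs of probes of other genes reach it is not given here. For Akt1 the first probe minus the second was -1.47, -0.30 and -0.83 in labelled db/m and -1.51, -1.49 and -1.56 in labelled db/db, a difference between groups of 0.65. Labelled db/m replicate 1 lay just above the db/db arrays and the other two further above. The first minus the third probe of Akt1 differed by 0.51. For Foxo3 the first minus the second probe was -1.20, -0.97 and -0.76 against -0.32, -0.64 and -0.48, a difference of -0.50, and the first minus the third differed by -0.47. The probes of Akt2, of Foxo1, of Grb10 and of Insr did not separate the groups in this way, with differences between -0.16 and 0.01.

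Grb10, the restraining adaptor, had 3 probes on the minus strand of chromosome 11, of which 2 were tested. A_52_P40363 (11870574 to 11870633) had levels of -3.32, -3.69 and -3.42 against -3.15, -3.19 and -3.52, and A_55_P1955457 (11833165 to 11833224) had -2.68, -2.12 and -2.57 against -2.13, -2.19 and -2.66. Both overlapped between groups, with labelled db/db replicate 3 the lowest of its group. The differences were -0.19 (SE 0.15, limma adjusted p = 0.507) and -0.13 (SE 0.21, limma adjusted p = 0.734). The remaining probe, A_55_P2717329, was well above background on 2 arrays, both labelled db/m, and was not tested. Its levels were -4.11, -3.63 and -3.71 against -4.22, -4.19 and -4.99.

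The differences of all probes ran with the signal. With the tested probes in 4 equal bins from dim to bright, the median was 0.16, 0.04, -0.06 and -0.14. The member probes were spread over the bins as 4, 4, 5 and 5, and those below 0 were 4, 3, 3 and 5. In the dimmest bin, where 34.1% of all probes were below 0, all 4 member probes were, and they were 1 of Insr, 1 of Foxo3 and 2 of Grb10. In the brightest bin, where 76.7% of all probes were below 0, the 5 member probes were likewise below 0, with a median of -0.13 near that of the bin. The part of signal in the count of 15 of 18 was not tested.

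**Figure D3:**
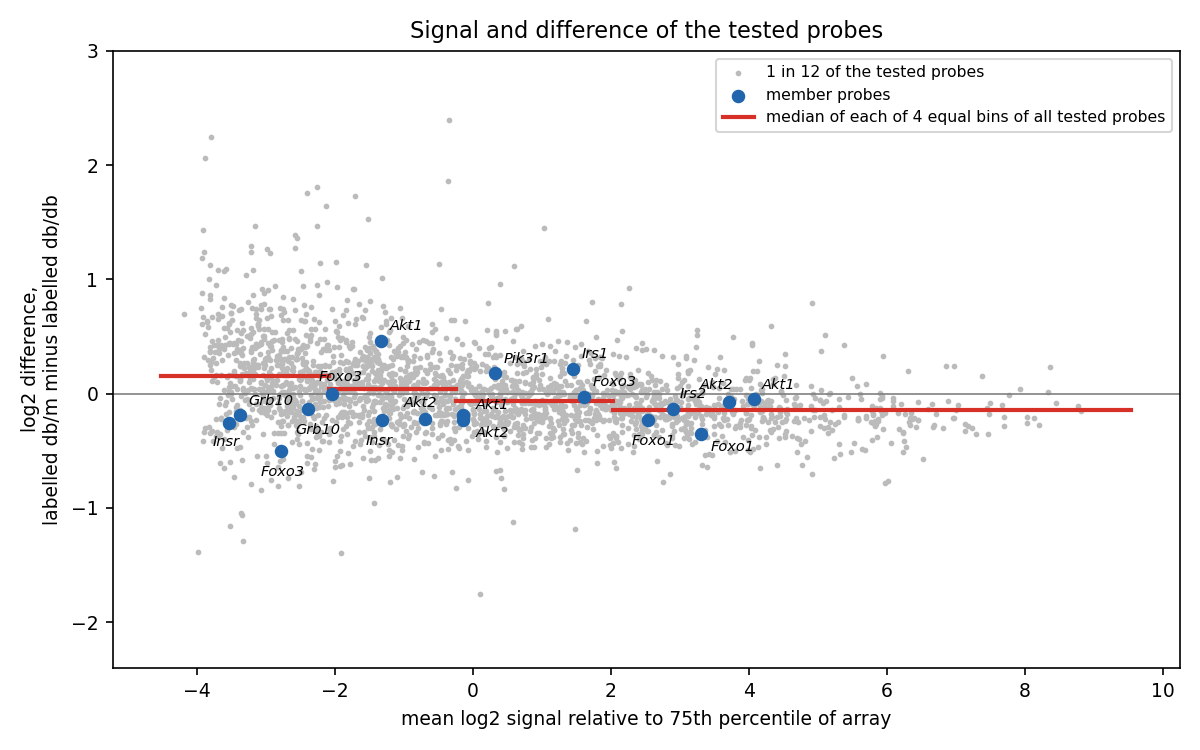
Difference on the log2 scale (vertical axis, above 0 where higher in labelled db/m) against the mean log2 signal relative to the 75th percentile of the array (horizontal axis) for 1 in 12 of the tested probes (grey) and the 18 member probes (blue, named by gene). Red lines give the median of all tested probes in each of 4 equal bins of signal, which runs from 0.16 in the dimmest to -0.14 in the brightest, and the 4 member probes of the dimmest bin lie below their red line.

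Other genes of the pathway were taken from 5 lists drawn up by function, with the 9 members left out. All 77 genes were on the array and 73 were tested, each by its brightest tested probe. Irs4, Pik3cg, Foxo4 and Foxo6 were too dim. At an unadjusted p under 0.05, 11 of the 73 were lower in labelled db/m (15.1%, beside 9.5% of all 16459 genes tested) and 5 were higher (6.85%, beside 6.1%). The groups did not overlap for 19 of the 73 (26.0%, beside 22.9% of all genes). None passed an adjusted p of 0.05 or reached 2-fold. The median difference was -0.04 for the 73 genes and for all genes tested. The count of 16 fell when single arrays were left out, to 9 for labelled db/m replicate 1 and 4 for its replicate 3, and to 8 for labelled db/db replicate 1 and 7 for its replicate 2. It was 26 with labelled db/m replicate 2 left out. The share of all tested probes called moved as well, from 17.7% to 14.4% and 7.7% without replicates 1 and 3 of labelled db/m. It was 10.85% and 8.6% without replicates 1 and 2 of labelled db/db, and 23.4% without labelled db/m replicate 2. Of the 16 genes, only Pik3cd, Inpp5k and G6pc had an unadjusted p under 0.05 without each array in turn. With the slide as a block 7 genes had one, beside 9.7% of all tested probes. Of the 7, 3 (Tbc1d4, G6pc and Pdk4) were among the 16 and 4 (Pik3r3, Socs3, Pck1 and Trim63) were not.

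Among receptors, substrates and adaptors, 2 of 15 tested genes were lower at an unadjusted p under 0.05 (13.3%, beside 9.5% of all genes). None was higher, beside 6.1% of all genes. Gab1, a docking protein related in function to the Irs proteins, had a difference of -0.44 (SE 0.15, limma adjusted p = 0.246). Enpp1, a membrane protein that can inhibit the insulin receptor, had -0.47 (SE 0.15, limma adjusted p = 0.244). Neither overlapped between groups, and both were close to 0 within the shared slide (-0.06 and -0.05). Grb7, an adaptor of the same family as Grb10 and among the brightest genes of the list that were not called, had a difference of 0.02.

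Among the lipid kinases and phosphatases, 2 of 10 were lower (20%, beside 9.5% of all genes) and 1 was higher (10%, beside 6.1%). Inpp5k, an inositol phosphatase that acts against insulin signalling, was at 1.66, 1.54 and 1.47 in labelled db/m and 2.38, 2.12 and 1.95 in labelled db/db, without overlap, a difference of -0.60 (SE 0.14, limma adjusted p = 0.24). Within the shared slide it was -0.29, and its unadjusted p was then over 0.05. Pik3r2, a second regulatory subunit, had a difference of -0.38 (SE 0.13, limma adjusted p = 0.245), opposite in sign to the 0.18 of Pik3r1 under this scaling and not under median centring. Pik3cd, the catalytic subunit found mainly in white blood cells, had 0.84 (SE 0.22, limma adjusted p = 0.24). It lay in the dimmest of the 4 bins and was well above background on 4 arrays, only 1 of them labelled db/db. Its probe thus met the filter through the 3 arrays of labelled db/m alone, the group in which it was higher. The part of the filter in this value was not tested. Inppl1, a phosphatase that acts on the lipid signal and was among the brightest genes not called, had a difference of 0.17.

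Markers of immune cells moved with Pik3cd. Their summed level, over 6 of 6 tested markers, was between 24.9 and 32.5 times the 75th percentile in labelled db/m and between 16.7 and 21.0 in labelled db/db, without overlap. Of the 6, 3 (Ptprc, Adgre1 and Itgam) were higher at an unadjusted p under 0.05, beside 6.1% of all genes tested. The part of immune cells in the value of Pik3cd was not tested. In a bulk sample, more cells of a type and more RNA per cell cannot be told apart. The summed levels of the podocyte, proximal tubule, distal nephron, endothelial, adipose, adrenal and islet lists overlapped between groups. At an unadjusted p under 0.05, 9.5% of all genes tested were lower. Among the single markers of these lists, 1 of 6 in the distal nephron list and 1 of 3 in the adrenal list were, without overlap. The 2 were Slc12a3, the sodium chloride carrier of the distal tubule (-0.91, SE 0.15, limma adjusted p = 0.24), and Hsd3b1, a steroid-making enzyme of the adrenal list (-0.69, SE 0.23, limma adjusted p = 0.245, and -0.20 within the shared slide). Adipoq, Plin1, Cfd, Cyp11b1, Ins1 and Ins2, which define adipose, adrenal and islet tissue, were too dim to test.

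Among Akt, mTOR and downstream kinases, 3 of 19 were lower (15.8%, beside 9.5% of all genes) and 1 was higher (5.3%, beside 6.1%). The lower ones were Rps6kb2, an S6 kinase (-0.55, SE 0.18, limma adjusted p = 0.243), Sgk1, a kinase that raises sodium uptake in the distal nephron (-0.48, SE 0.19, limma adjusted p = 0.271), and Prkcz, an atypical protein kinase C (-0.47, SE 0.17, limma adjusted p = 0.254). Tbc1d4, the Akt substrate that governs glucose transporter traffic, was at 0.12, -0.71 and -0.01 in labelled db/m and -0.81, -0.93 and -0.90 in labelled db/db. Labelled db/m replicate 2 was near the db/db arrays and the other two were far above. The difference was 0.68, or 60.0% higher (SE 0.22, limma adjusted p = 0.244), and 0.93 without labelled db/m replicate 2. Rheb (0.24) and Gsk3a (-0.11) were the brightest genes not called.

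Among inhibitors of insulin signalling, 2 of 11 were lower (18.2%, beside 9.5% of all genes) and 1 was higher (9.1%, beside 6.1%). Phlpp1, a phosphatase that removes an activating phosphate from Akt, had a difference of -0.31 (SE 0.11, limma adjusted p = 0.246), and Deptor, an inhibitor of mTOR, had -0.31 (SE 0.11, limma adjusted p = 0.259) and -0.07 within the shared slide. Socs1, which is induced by cytokines and binds the receptor, had 0.35 (SE 0.14, limma adjusted p = 0.266) and 0.16 under median centring. It lay in the dimmest bin of signal. The summed immune markers given above were also higher in labelled db/m, and the part of immune cells in the value of Socs1 was not tested. The phosphatases Ptpn11 (0.02) and Ptprf (0.01) were the brightest genes not called, both below 0 under median centring.

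**Figure D4:**
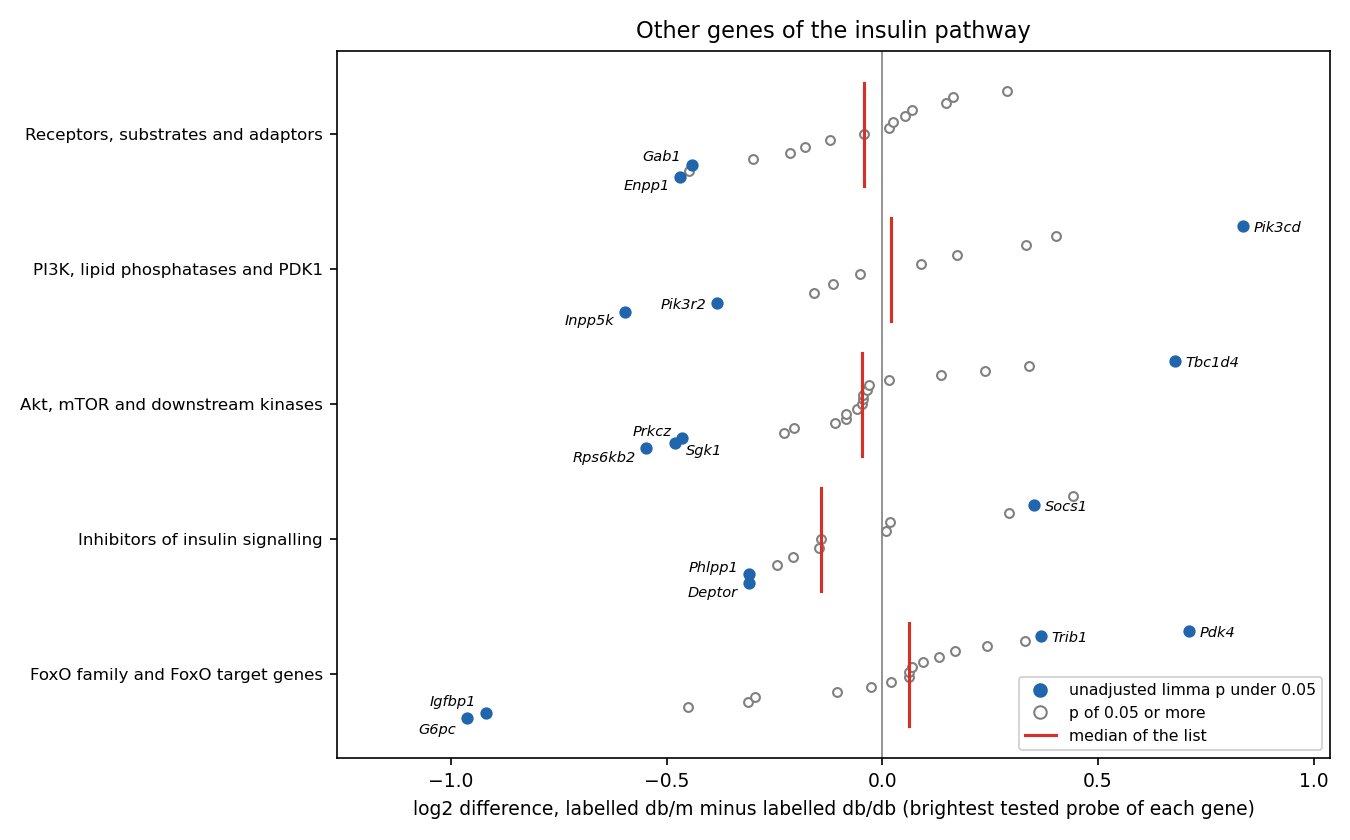
Difference of 73 pathway genes on the log2 scale (horizontal axis, above 0 where higher in labelled db/m), each by its brightest tested probe and grouped by list (vertical axis), with genes at an unadjusted limma p under 0.05 filled and named and the median of each list in red. The list medians lie between -0.14 and 0.06, and the 2 lowest genes are G6pc and Igfbp1.

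FoxO target genes held the largest differences of the pathway, and they went both ways. Of 18 tested genes of this list, 2 were lower and 2 higher at an unadjusted p under 0.05. Each is 11.1%, beside 9.5% of all genes lower and 6.1% higher. The median of the list was 0.06. G6pc, the catalytic subunit of glucose-6-phosphatase and the last step of glucose production, had levels of 5.83, 6.21 and 5.80 in labelled db/m and 7.03, 6.86 and 6.84 in labelled db/db. The groups were separated by more than the range within either. The difference was -0.96, or 48.7% lower (SE 0.15, limma adjusted p = 0.24). It was -1.02 within the shared slide and between -1.10 and -0.89 without each array in turn, and its unadjusted p was under 0.05 in every alternative tried. Without labelled db/m replicate 2 its adjusted p was 0.0373.

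Igfbp1, a binding protein that ties up insulin-like growth factors and is held down by insulin in liver, had levels of 2.56, 2.77 and 2.43 against 3.85, 2.84 and 3.83. Labelled db/db replicate 2 lay just above the arrays labelled db/m, and the other two lay far above. The difference was -0.92, or 47.1% lower (SE 0.28, limma adjusted p = 0.24). It was -0.75 without labelled db/db replicate 1, -0.76 without replicate 3 and -1.25 without replicate 2 of that group, and in the first 2 of these its unadjusted p was just over 0.05.

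The other genes of the list lay on both sides of 0, with 7 of the 18 below it, G6pc and Igfbp1 included. Pck1, which catalyses the committed step of glucose production, had levels of 7.27, 8.18 and 7.82 against 8.04, 8.11 and 8.05. Its 3 arrays labelled db/m were spread on both sides of the db/db arrays, with a difference of -0.31 (SE 0.22, limma adjusted p = 0.461). Its size hung on single arrays, being -0.07 with replicate 1 of labelled db/m dropped. It was -0.52 with replicate 2 of that group dropped and -0.78 within the shared slide, both at an unadjusted p under 0.05. Pdk4, a kinase that shuts down pyruvate oxidation in fasting, had 1.27, 0.35 and 0.72 against 0.50, -0.30 and 0.01, a difference of 0.71 (SE 0.29, limma adjusted p = 0.277) with overlapping groups. Trib1, a pseudokinase, had 1.36, 1.04 and 1.41 against 0.89, 1.04 and 0.77, a difference of 0.37 (SE 0.14, limma adjusted p = 0.269), and its groups met at replicate 2 of both. Txnip, a regulator of glucose uptake that responds to glucose itself, had a difference of 0.06, and of -0.13 under median centring.

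**Figure D5:**
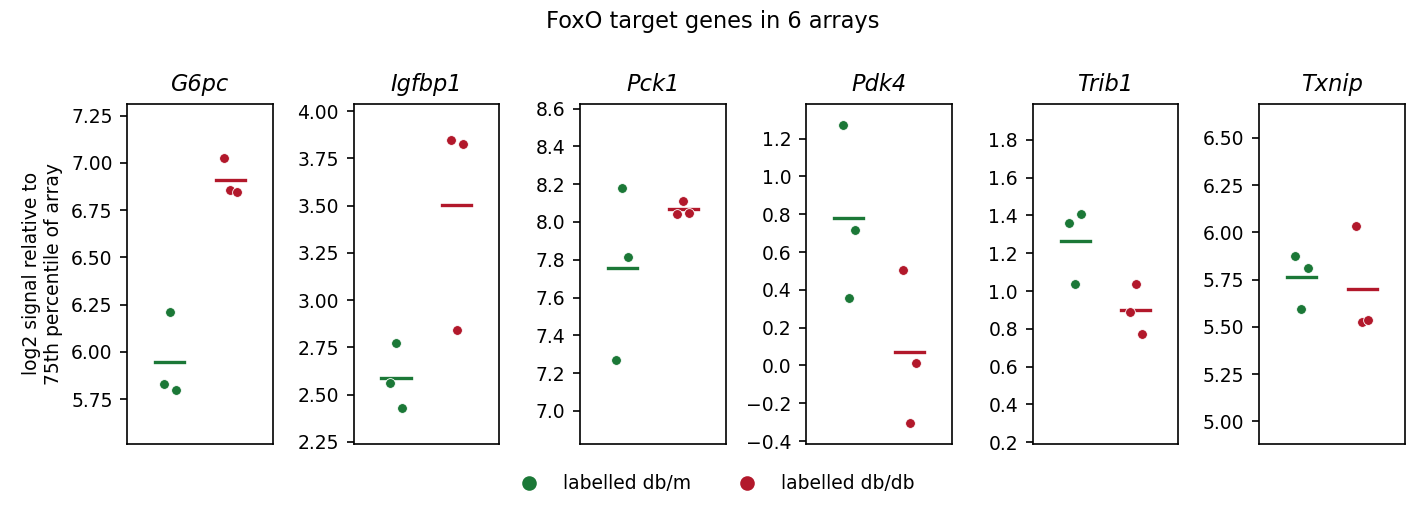
Log2 signal relative to the 75th percentile of the array (vertical axis, the same span in each panel) of 6 FoxO target genes in the 3 arrays labelled db/m (green) and the 3 labelled db/db (red), with the group mean as a bar. G6pc and Igfbp1 are lower in labelled db/m without overlap, Pdk4 and Trib1 have higher means with overlap, and Pck1 and Txnip overlap.

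Promoter windows from RefSeq (GRCm38.p6, 250 bases before to 50 after a gene start) were searched on both strands for the FoxO consensus GTAAACA, which reads TGTTTAC on the other strand, and for the core of the insulin response element, CAAAACA, which reads TGTTTTG. Of 32851 windows, 3.65% held the first, 6.28% the second and 9.63% either. Of the 9 genes, 8 had a window, and 3 of these held a match, namely Irs1 with 2, Irs2 with 1 and Akt1 with 1. Of 16 genes of the FoxO list with a window, 6 held a match (G6pc, Igfbp1, Trim63, Sesn1, Ccng2 and Txnip). These are counts of genes, some of which had several windows (4 for Akt2). They are therefore not like the shares of windows given above. A match describes letters and is not evidence of binding. The 250 bases before the start are shown for the docking proteins and for the targets with the largest differences, with the matches in capitals.
G6pc, chr11:101367466-101367715, plus strand: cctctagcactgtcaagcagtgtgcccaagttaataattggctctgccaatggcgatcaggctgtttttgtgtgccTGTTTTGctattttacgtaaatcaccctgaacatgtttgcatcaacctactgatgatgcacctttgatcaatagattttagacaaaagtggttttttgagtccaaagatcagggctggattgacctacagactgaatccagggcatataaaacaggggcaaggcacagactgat
Igfbp1, chr11:7197537-7197786, plus strand: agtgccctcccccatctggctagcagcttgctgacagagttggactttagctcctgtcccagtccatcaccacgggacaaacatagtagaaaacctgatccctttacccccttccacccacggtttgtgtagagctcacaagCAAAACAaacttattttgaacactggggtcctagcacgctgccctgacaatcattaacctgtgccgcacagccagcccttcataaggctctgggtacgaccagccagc
Irs1, chr1:82291440-82291689, minus strand: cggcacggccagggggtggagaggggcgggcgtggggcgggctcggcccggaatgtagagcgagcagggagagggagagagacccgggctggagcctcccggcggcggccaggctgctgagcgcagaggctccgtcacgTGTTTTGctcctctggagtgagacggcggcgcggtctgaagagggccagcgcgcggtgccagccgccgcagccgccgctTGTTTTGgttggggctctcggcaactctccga
Irs2, chr8:11008930-11009179, minus strand: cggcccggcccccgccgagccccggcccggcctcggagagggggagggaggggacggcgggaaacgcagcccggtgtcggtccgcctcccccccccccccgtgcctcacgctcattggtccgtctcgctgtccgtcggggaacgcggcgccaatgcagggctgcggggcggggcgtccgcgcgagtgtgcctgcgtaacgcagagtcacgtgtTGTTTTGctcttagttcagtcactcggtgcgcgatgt

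Counted from the gene start, matches in these windows began at base -174 in G6pc, -108 in Igfbp1, -111 and -32 in Irs1 and -37 in Irs2. The genes with a match of the core did not share a sign. Their differences were -0.96 for G6pc, -0.92 for Igfbp1, 0.22 for Irs1, -0.13 for Irs2 and 0.13 for Ccng2, whose window is not shown. None passed the adjusted threshold. The 95% intervals of Irs1 (-0.16 to 0.59), Irs2 (-0.42 to 0.15) and Ccng2 (-0.15 to 0.41) held 0, so their signs are not settled. A part of the core in these differences was not tested.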

How the data were processed

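RNA of 6 renal cortex samples was read on arrays of 62976 spots in 1 colour (Cy3). Spot intensity values were deposited by the authors as written by Agilent Feature Extraction 10.7.1.1, background-subtracted and not scaled between arrays, and a matrix of log2 values. The latter has the same sorted values in each column, as quantile normalization leaves them, and served as an alternative. The study's text names no normalization or test for the arrays, and one-way ANOVA for other measurements. The file of labelled db/m replicate 1 holds values to 3 significant digits and 71 differing gene names, so names came from another file. Coordinates are those of the files, on mm9, for which no annotation was used here.

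Control spots were dropped, as were 135 probes flagged as outliers, repeated spots of a probe were averaged, and log2 values were set against the 75th percentile of each array (R 4.3.3, limma 3.58.1). Groups of 3 were compared with lmFit and eBayes, with Benjamini-Hochberg adjustment over 29889 probes. The procedure was tested on simulated data. The members and lists were chosen with earlier results of these data known. Named were all 9 members, pathway genes with an unadjusted p under 0.05 and 2 bright genes per list besides, by the brightest tested probe; some genes of the lists are counted but not reported here by name. Symbols equal to an accession were not counted as genes. Alternatives were quantile normalization, median centring, normexp with an offset of 50, other filters, the methods' t-test (that ANOVA, which for 2 groups is a t-test), trend and robust variances, the authors' matrix, slide and replicate blocks, and arrays left out. The number of arrays limits the precision. Same-numbered arrays were not taken as pairs, as the labels do not say that they are. Their deviations from the group means correlated at 0.35, 0.15 and 0.05, and those of differently numbered arrays at between -0.34 and 0.15. These values do not settle whether the arrays are paired, so the replicate block is given as an alternative.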

Additional observations from a re-analysis of the deposited data

How the results depend on the processing

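In all alternatives 0 member probes passed the adjusted threshold and 0 passed the 2-fold screen. The 3 member probes with an unadjusted p under 0.05 became 5 under median centring and under the methods' t-test, 1 with the slide as a block and 1 with the replicate block, 6 without replicate 2 of labelled db/m and replicate 3 of labelled db/db together, and between 1 and 3 without each array in turn. The share of all tested probes moved as well, from 17.7% to 22.34% under median centring, 15.45% with the t-test, 9.709% with the slide block, 21.95% with the replicate block and between 7.742% and 24.27% without each array in turn. The 16 pathway genes became 7 with the slide as a block and between 4 and 26 without each array in turn. The slide block leaves 1 comparison of 2 arrays.

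Some differences changed sign, none of them past the adjusted threshold. Under median centring Pik3r1 was at -0.011, Grb7 at -0.163, Inppl1 at -0.013, Ptpn11 at -0.17, Ptprf at -0.18 and Txnip at -0.13. After quantile normalization and in the authors' matrix the values were 0.067 and 0.064 for Akt1 A_51_P237553, 0.046 and 0.045 for Akt2 A_55_P2066518, 0.042 and 0.041 for Foxo3 A_65_P08314, 0.0081 and 0.0062 for Gsk3a, and -0.17 and -0.16 for the Foxo3 pair A_55_P2506540 minus A_65_P08314. With the slide as a block they were 0.29 for Akt1 A_66_P107415, 0.036 for Akt1 A_51_P237553, 0.10 for Foxo3 A_55_P2506540, 0.19 for Grb10 A_52_P40363 and -0.20 for Ptprf. Ptprf was at -0.059 without both arrays named above, and Akt1 at 0.076 as the mean of its probes. Leaving out each array in turn gave ranges across 0 for Akt2 A_55_P2066518 (-0.11 to 0.0046), Foxo3 A_55_P2506540 (-0.070 to 0.084), Foxo3 A_65_P08314 (-0.14 to 0.038), Grb7 (-0.039 to 0.077), Ptpn11 (-0.016 to 0.075), Ptprf (-0.072 to 0.10) and Txnip (-0.025 to 0.23). The cause was not tested. The replicate block changed the side of the unadjusted threshold for 4 of the 42 single differences. Probes near background carry the least information, and the untested Grb10 probe is one of them. It enters these counts where a filter lets it pass.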
